A study of Mus musculus with 6 samples.

Results

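The genes examined here encode the proteins that join epidermal cells to each other: desmosomes, tight junctions, gap junctions and adherens junctions. Members were chosen by symbol, as desmogleins, desmocollins, plakophilins, claudins, zonula occludens proteins, cadherins, connexins and catenins with a numbered symbol, plus Dsp, Jup, Ocln, Nectin1 and Nectin4, in a table of 12894 genes. This gave 37 members, and the other 64 symbols of the annotation that follow the same pattern were not analysed here. The members were measured by bulk RNA sequencing of epidermis, separated from the dermis, of C57BL/6 mice at postnatal day 0. There were 3 libraries labelled control and 3 labelled knockout, the latter from animals in which Hnrnpu, a nuclear RNA-binding protein, had been targeted with loxP sites and Cre recombinase. Control 1 was labelled wild type, and controls 2 and 3 carried the genotype word Heterogenous, read here as heterozygous. Where 3 values are given for a group, they are in the order of libraries 1 to 3. The promoter that drives Cre and the deleted part of the gene are not given in the labels.

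Desmosomes anchor keratin filaments at the membrane: their cadherins, desmogleins and desmocollins, bind across the gap between cells, and plakoglobin, plakophilins and desmoplakin link them to keratin. Tight junctions seal the space between cells of the granular layer with claudins and occludin, held by zonula occludens proteins. Gap junctions are channels of connexins that let small molecules pass between cells. Adherens junctions join actin belts through classical cadherins, catenins and nectins. In epidermis the make-up changes from layer to layer: Dsg3, Dsc3 and P-cadherin are typical of basal cells, while Dsg1 and Dsc1 are typical of the upper layers.

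Several values of the whole data set bear on what follows. The Hnrnpu count did not fall in the libraries labelled knockout, with a log2 difference of −0.01 ± 0.20 (SE, n = 3 and 3; limma adjusted p = 0.976), so all directions rest on the labels. Xist was at most 3.27 normalized counts in the 3 controls and in knockout 1, and 5656 and 4758 in knockout 2 and 3, so the groups also differ in their mix of sexes, and knockout 1 was therefore also compared alone with the controls. That comparison holds no spread between knockout-labelled libraries, so only its log2 differences are given. It still counts as 1 of the alternatives below. Estimated depth was 6450000 to 9110000 reads per library, and 1 read was worth 0.755 to 1.70 normalized counts. Knockout 2 had the fewest reads and the highest worth per read. Its normalized total was 10987666, against 6850663 to 8469679 in the others, while its median value of 132.7 lay within their 130.8 to 138.2. Each keratinocyte layer had abundant markers, for example Krt1 at 199680 to 352520 normalized counts and the basal Krt14 at 3208 or more in each library. Basal markers did not move together: Krt14 rose, while Krt15 was at 1833 to 4009 in controls and 5.10 to 52.1 in the knockout-labelled libraries. All 5 melanocyte markers rose, their summed level going from 341 to 477 normalized counts in controls to 2618 to 4264, and 3 of 4 measured fibroblast markers rose, with sums of 137 to 391 and 440 to 516. Cdh5 and Cldn5, the endothelial junction genes, and the Merkel cell and muscle markers were not analysed here. The part of other cell types in the results was not tested. In bulk tissue, fewer cells of a type and less RNA per cell cannot be told apart.

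Junction genes changed in both directions, and within the connexin family some members rose while others fell. Gjb2, Gjb6, Dsg3, Dsc2 and Cldn12 rose 4.47-fold to 14.1-fold, while Gjb5 and Tjp3 fell to 0.0763 and 0.254 of the control level. The structural proteins Dsp, Pkp1, Dsc3, Ctnnd1 and Nectin1 did not pass the test, with log2 differences between −0.06 and 0.19. Of the 37 members, 17 passed the test, 12 toward higher and 5 toward lower values with the knockout label (limma, Benjamini-Hochberg adjusted p of 0.05 over all 12872 genes tested). These are 45.9% of the members, 32.4% higher and 13.5% lower, where 33.6% of all genes tested passed, 17.7% higher and 15.9% lower. Values of the knockout-labelled group lay wholly above the controls for 20 members and wholly below for 7, against 25.8% and 25% of all genes. The median log2 change of the members was 0.43, and that of all genes tested −0.02.

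**Figure D1:**
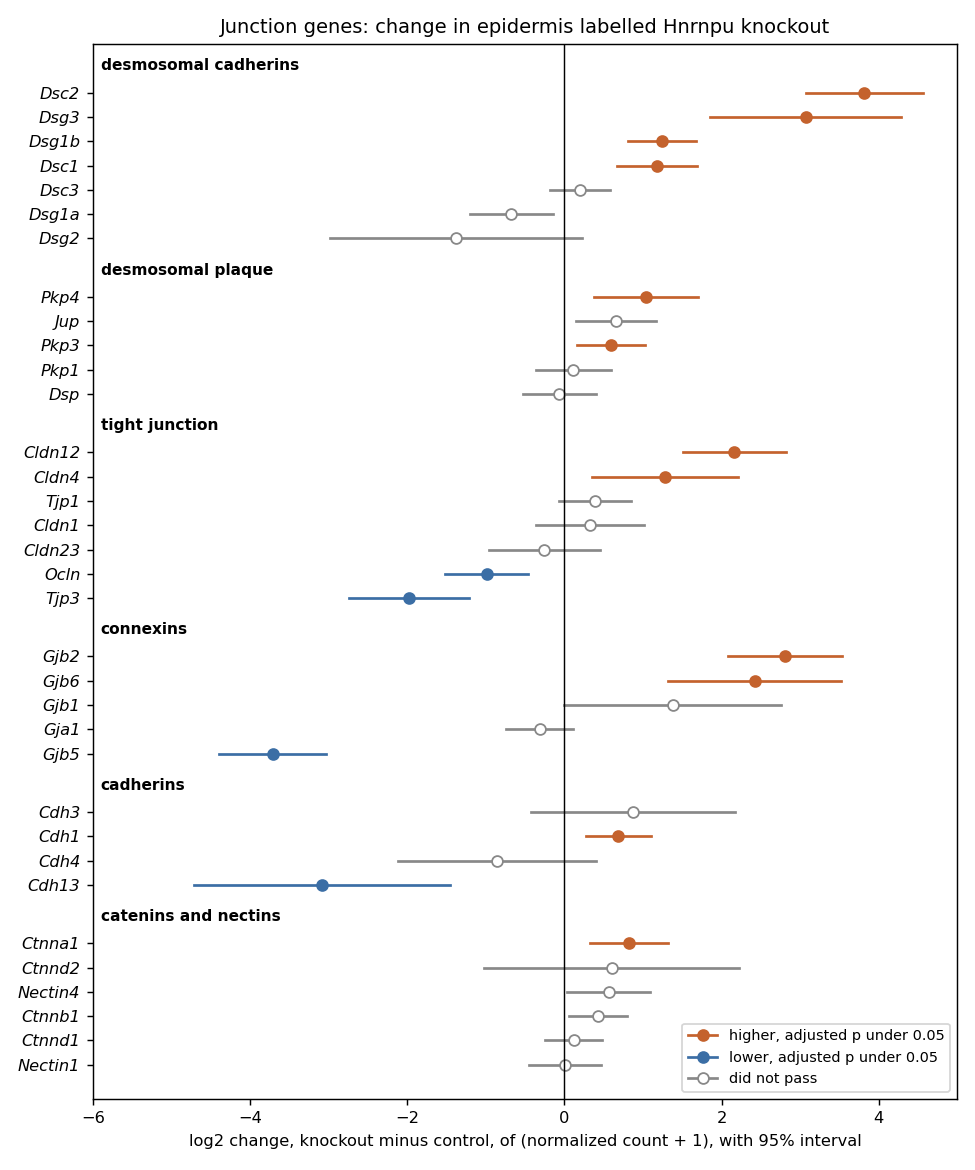
Log2 change of 34 of the 37 junction genes, knockout-labelled minus control libraries (n = 3 and 3), on the scale of normalized count + 1. Points are estimates, lines their 95% intervals, filled points passed the test; the extremes are Dsc2 at 3.82 and Gjb5 at −3.71.

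The split between higher and lower members depended on how libraries were scaled. It was 12 and 5 with the deposited values, 8 and 9 with library totals set equal, and 7 and 10 with quantile normalization. Of all genes tested, 11.2% passed toward higher and 23.8% toward lower values with equal totals, and 17.1% and 17.3% with quantile normalization. The median log2 change with quantile normalization was −0.0679 for the members and −0.0649 for all genes. With equal totals the median gene stood at −0.36 in place of −0.02, and directions below are given relative to the deposited scale. For 8 members the call held in each of the 16 alternatives tried, among them Gjb2, Gjb6, Dsg3, Dsc2 and Cldn12 toward higher and Gjb5 and Tjp3 toward lower values. Without control 2 or control 3, the higher members numbered 7, beside 12.1% and 11.8% of all genes.

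Among the connexin genes, Gjb2 and Gjb6 rose and Gjb5 fell. Gja1, the alpha connexin, is the widespread one of epidermis, and the Gjb genes encode beta connexins, of which Gjb2 and Gjb6 carry mutations in inherited skin or hearing disorders. In the RefSeq gene order Gjb2 and Gjb6 are direct neighbours on chromosome 14, and Gjb5 lies on chromosome 4. The 250 bases before the transcription start are shown for the connexins that rose together (Gjb2, Gjb6), for the one that fell most (Gjb5) and for Gja1, which did not pass the test. They come from RefSeq (build GRCm38.p6) and are read 5′ to 3′ on the gene's strand. RefSeq promoters were at hand for 18 of the 37 members. Bases just after the start lay in a GENCODE transcript of the gene for 17 of the 28 entries checked. The other starts rest on RefSeq alone. Capitals mark matches, on either strand, to any of 6 motifs searched: the AP-1 site TGANTCA, the grainyhead-like site AACCNGTT, the cAMP response element TGACGTCA, the C/EBP-ATF element TGATGNAA, the GC box GGGCGG and the TATA box TATAAA.
Gjb2, chr14:57104703-57104952, minus strand: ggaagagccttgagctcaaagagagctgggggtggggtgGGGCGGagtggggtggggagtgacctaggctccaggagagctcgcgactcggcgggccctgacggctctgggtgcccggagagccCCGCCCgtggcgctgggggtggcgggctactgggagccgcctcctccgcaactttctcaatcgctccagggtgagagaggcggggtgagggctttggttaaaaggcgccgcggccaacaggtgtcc
Gjb6, chr14:57133612-57133861, minus strand: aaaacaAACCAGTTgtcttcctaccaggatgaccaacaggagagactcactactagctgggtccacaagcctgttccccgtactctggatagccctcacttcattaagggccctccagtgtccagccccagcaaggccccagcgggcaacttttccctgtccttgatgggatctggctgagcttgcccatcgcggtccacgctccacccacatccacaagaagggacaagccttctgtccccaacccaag
Gjb5, chr4:127358165-127358414, minus strand: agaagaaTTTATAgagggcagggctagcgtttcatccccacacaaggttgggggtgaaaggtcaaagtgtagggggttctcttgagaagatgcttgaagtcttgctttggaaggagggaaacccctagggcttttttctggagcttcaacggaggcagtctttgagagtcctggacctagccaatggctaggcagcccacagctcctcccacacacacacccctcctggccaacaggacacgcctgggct
Gja1, chr10:56377050-56377299, plus strand: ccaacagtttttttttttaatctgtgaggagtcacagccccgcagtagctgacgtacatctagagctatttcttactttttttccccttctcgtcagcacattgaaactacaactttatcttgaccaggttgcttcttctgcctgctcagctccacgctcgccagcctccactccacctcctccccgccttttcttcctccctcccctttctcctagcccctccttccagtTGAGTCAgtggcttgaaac
In these windows Gjb2 held 2 GC boxes, starting 211 and 126 bases before the start, and 32.7% of all 32851 RefSeq promoter windows of this length hold at least 1. Gjb6 held 1 grainyhead-like match, 244 bases before the start, a word found in 1.79% of windows. Gjb5 held only a TATA word on the opposite strand, 243 bases upstream (12.4% of windows), and Gja1 only an AP-1 match 19 bases upstream (6.75% of windows). The neighbours Gjb2 and Gjb6 had no motif in common among the 6. A match describes the letters and is no evidence of binding.

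Gjb2 had 1968, 2467 and 2575 normalized counts in the 3 controls and 13778, 27569 and 11238 in the knockout-labelled libraries. Every knockout-labelled library was above every control, and knockout 2, the library with the highest normalized total, was highest. The log2 change was 2.80 ± 0.32 (SE, n = 3 and 3), a 6.99-fold rise (limma adjusted p = 6.27e-04), and 2.19 with quantile normalization. Its neighbour Gjb6 had 520, 616 and 593 in the controls and 3415, 6497 and 1325 in the knockout-labelled libraries. The controls lay close together, while the knockout-labelled libraries were widely spread and did not overlap them. Gjb6 rose by 2.42 ± 0.48 (adjusted p = 0.00677), by 3.03 without knockout 3 and by 1.89 without knockout 2.

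Gjb5 moved the other way, from 743, 981 and 1166 normalized counts in the 3 controls to 60.7, 54.4 and 109.8 in the knockout-labelled libraries. The groups were far apart, and the log2 change was −3.71 ± 0.30 (limma adjusted p = 1.40e-04), the largest fall among the members.

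Gja1 had 7657, 7439 and 9890 normalized counts in controls and 5996, 6870 and 7085 in the knockout-labelled libraries. All 3 of the latter were lower than any control, but the difference of −0.32 ± 0.19 did not pass (limma adjusted p = 0.213). With library totals set equal or with quantile normalization Gja1 did pass, toward lower values. Gjb1, the X-linked connexin of liver and nerve, was near the floor, with 6.20 to 9.82 normalized counts in controls and 29.9, 39.1 and 9.98 in the knockout-labelled libraries. It did not pass (adjusted p = 0.110), but passed without knockout 3 (0.0280). All genes of the data set reached about 30 estimated reads in some library, and Gjb1 did so only in the knockout-labelled group. These p-values are therefore no independent support for a rise of Gjb1.

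**Figure D2:**
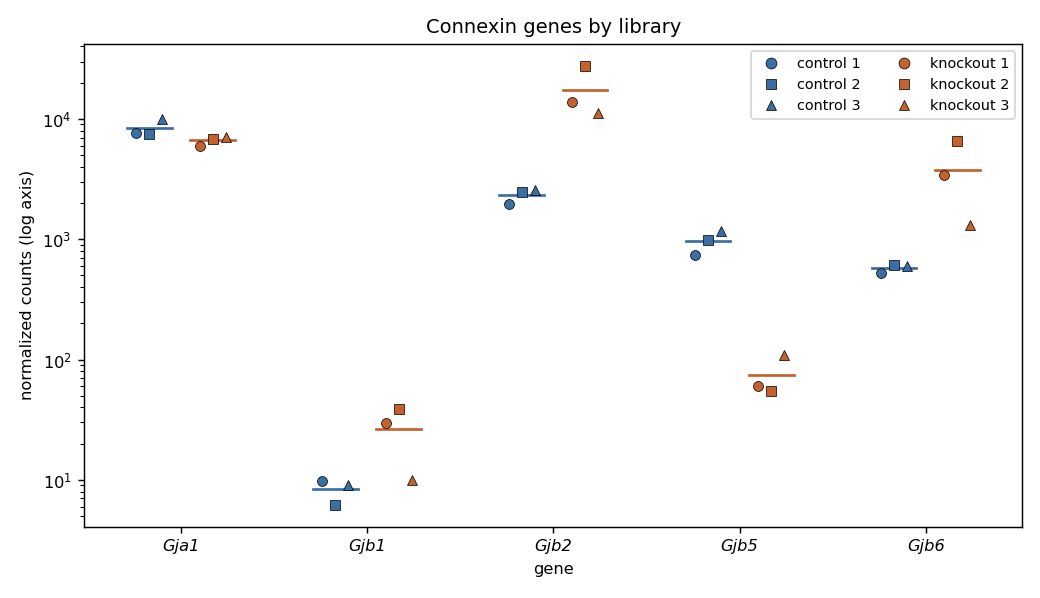
Normalized counts (log axis) of 5 connexin genes in each library; points are libraries and bars group means. The 3 knockout-labelled libraries lie above all controls for Gjb2 (11238 to 27569 against 1968 to 2575) and below them for Gjb5 (54.4 to 109.8 against 743 to 1166).

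Because a share within 1 library does not depend on that library's scaling, the connexins were also expressed per kilobase of exon and as shares of the family. In the 3 controls Gja1 made up 46.7, 40.6 and 43.9% of connexin transcripts by this measure and Gjb2 16.8, 18.9 and 16.0%. In the knockout-labelled libraries Gjb2 made up 57.7, 64.5 and 55.8% and Gja1 17.9, 11.5 and 25.1%. The leading connexin was thus Gja1 in each control and Gjb2 in each knockout-labelled library. The share of Gjb5 went from between 8.88 and 10.5% to between 0.18 and 0.76%. The share of Gjb6 went from 4.22 to 5.39% to 7.53 to 17.4%. The log2 ratio of Gjb2 to Gja1 was −1.83 ± 0.21 in controls and 1.29 ± 0.67 in the knockout-labelled group (SD, n = 3 each), a difference of 3.12. By exact permutation of the 6 libraries (two-sided) p was 0.1, or 0.117 adjusted over the 7 ratios computed; 3 against 3 libraries cannot give less than 0.1.

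**Figure D3:**
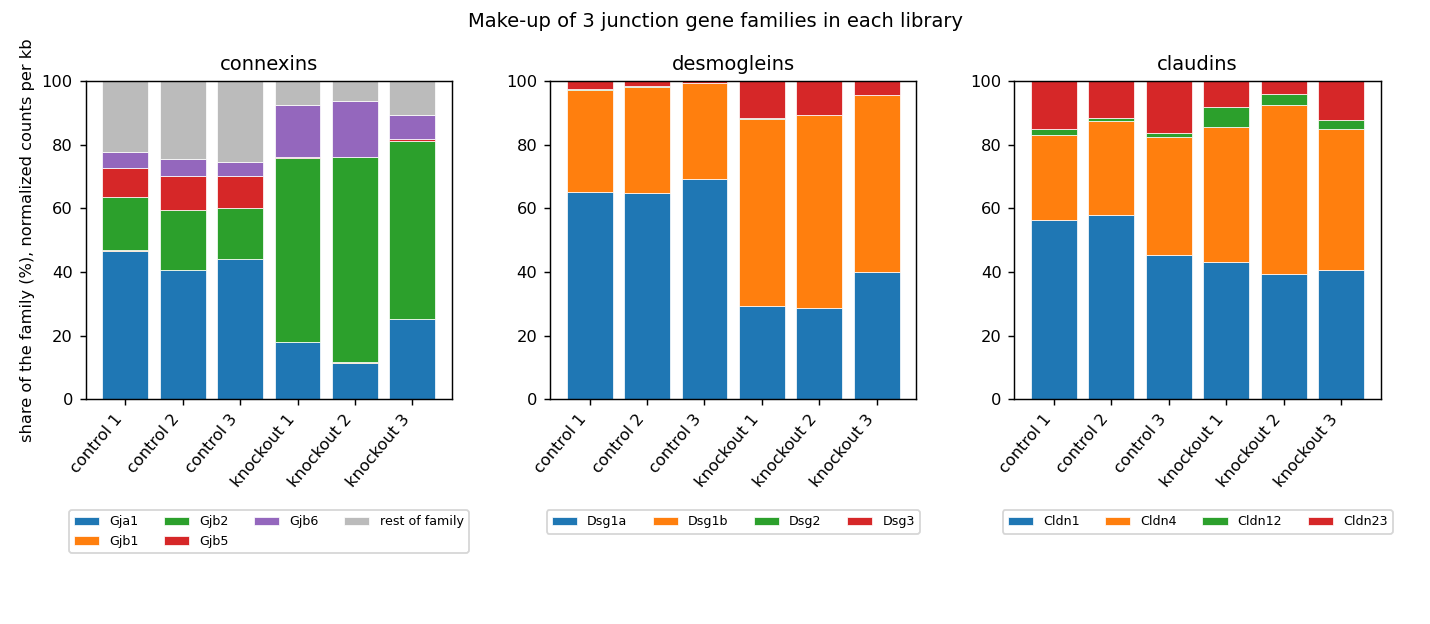
Share of each gene (%) in the connexin, desmoglein and claudin families of each library, from normalized counts per kilobase of exon; stacked segments sum to 100. Grey segments are the rest of a family. Gja1 takes 40.6 to 46.7% of connexins in controls and Gjb2 55.8 to 64.5% in the knockout-labelled libraries.

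Among the desmosomal cadherins, whose genes lie in 1 cluster on chromosome 18, 4 of 7 rose (57.1%, all genes tested 17.7%) and none passed toward lower values (all genes 15.9%). With quantile normalization 2 rose (Dsc2 and Dsg3) and 2 passed toward lower values (Dsg1a and Dsc3), beside 17.1% and 17.3% of all genes. Dsc2, a desmocollin that is low in normal epidermis, had 40.8, 31.0 and 32.7 normalized counts in the 3 controls and 403, 842 and 369 in the knockout-labelled libraries. All controls were at a similar low level, and the rise of 3.82 ± 0.33 on the log2 scale was the largest of any member (14.1-fold, limma adjusted p = 1.92e-04). Dsg3, the basal desmoglein and pemphigus vulgaris antigen, went from 1097, 718 and 272 to 6033, 7736 and 2730. Both groups were spread, control 3 and knockout 3 being lowest, yet they did not overlap. Dsg3 rose by 3.07 ± 0.53 (adjusted p = 0.00383).

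Dsc1, the desmocollin of upper layers, had 14258, 14636 and 19612 normalized counts in controls and 30402, 42284 and 37021 in the knockout-labelled libraries. The groups were well separated and the change was 1.18 ± 0.22 (limma adjusted p = 0.00535). With quantile normalization it was 0.22 and no longer passed (0.366). Dsc3 differed little, with 9383 to 10311 in controls and 10710 to 12333, a difference of 0.19 with an interval of −0.19 to 0.58. With quantile normalization its difference was −0.67 (adjusted p = 0.0123). Per kilobase, Dsc1 took 63.7 to 72.1% of desmocollin transcripts in controls and 77.2 to 80.5% in the knockout-labelled libraries, Dsc3 27.8 to 36.2% and 18.7 to 21.9%, and Dsc2 at most 0.17% and at most 1.47%. Dsc2 thus had the largest fold change of the desmocollins while it remained the smallest share.

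The desmoglein 1 paralogs differed in direction. Dsg1b had 8334, 8894 and 8971 normalized counts in controls and 17485, 24700 and 20388 in the knockout-labelled libraries, a change of 1.24 ± 0.19 (limma adjusted p = 0.00233). With quantile normalization this was 0.42 and missed the threshold (0.0556). Dsg1a had 24525, 24778 and 29464 in controls and 12468, 16892 and 20904 in the knockout-labelled libraries. No knockout-labelled library reached any control, but the difference of −0.67 ± 0.23 just missed the threshold (adjusted p = 0.0540). Dsg1a passed in a fit with adjacent animal numbers as the replicate block (0.0160), without knockout 3, with equal totals, with quantile normalization and with the robust fit, in each case toward lower values. With knockout 1 alone its difference was −1.07. The values of the paralogs are uncertain singly: 45.5% of the 50-base windows in Dsg1b transcripts also occur in Dsg1a, and 31.6% of those of Dsg1a in Dsg1b. No other member shared more than 0.08% of its windows with another junction gene. The sum of both was 32859, 33673 and 38434 in controls and 29953, 41592 and 41292 in the knockout-labelled libraries, with overlapping groups. That sum differed by 0.09 ± 0.22 (adjusted p = 0.765, interval −0.40 to 0.58).

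Dsg2, a desmoglein of simple epithelia and of basal and follicle cells, had 316, 262 and 67.0 normalized counts in controls and 174.8, 49.3 and 35.4 in the knockout-labelled libraries. Control 3 lay below knockout 1, so the groups overlapped. The difference was −1.38 ± 0.70 (limma adjusted p = 0.157), and it passed with the replicate block (0.0122), without control 3 (0.0486) and without knockout 1 (0.0472). Leaving out 1 library the difference ranged from −2.07 to −0.92, and with knockout 1 alone it was −0.02. Per kilobase, Dsg3 took 0.52 to 2.38% of desmoglein transcripts in controls and 4.25 to 11.6% in the knockout-labelled libraries.

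**Figure D4:**
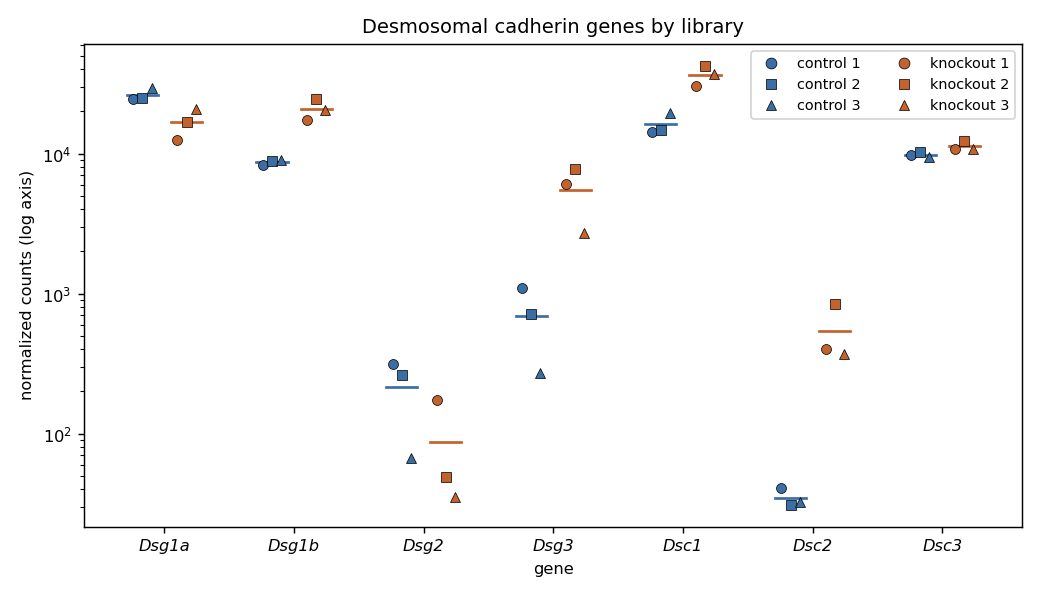
Normalized counts (log axis) of the 7 desmosomal cadherin genes in each library; points are libraries and bars group means. Dsc2 lies at 31.0 to 40.8 in controls and 369 to 842 in the knockout-labelled libraries, while Dsc3 keeps to 9383 to 12333 in all 6.

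In the cytoplasmic plaque of the desmosome, 2 of 5 members rose (40%, all genes tested 17.7%) and none fell (all genes 15.9%) on the deposited scale. Desmoplakin (Dsp), which binds keratin, had 64369, 67684 and 71622 normalized counts in controls and 59558, 68019 and 67414 in the knockout-labelled libraries. The groups overlapped, with knockout 1 below every control, and the log2 difference of −0.06 had an interval of −0.53 to 0.40 (limma adjusted p = 0.826). With library totals set equal, Dsp passed toward lower values (0.0472). Pkp1, the main plakophilin of suprabasal cells, had 29743 to 36437 in controls and 31411 to 40914 in the knockout-labelled libraries, an interval of −0.36 to 0.59. It passed toward lower values with quantile normalization (−0.71, adjusted p = 0.0239). Plakoglobin (Jup), shared by desmosomes and adherens junctions, had 19717, 24514 and 24969 in controls and 28977, 43102 and 37816 in the knockout-labelled libraries. These did not overlap, but the difference of 0.66 ± 0.22 just missed the threshold (0.0519), passing with the replicate block (0.0147), with the robust fit and without knockout 1. With quantile normalization it was −0.07.

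Of the other plakophilins, Pkp3 had 3407, 3693 and 3952 normalized counts in controls and 4704, 6736 and 5375 in the knockout-labelled libraries. All of the latter were higher, and Pkp3 rose by 0.59 ± 0.19 (limma adjusted p = 0.0403). Pkp4, a catenin relative found at desmosomes and adherens junctions, had 351, 266 and 219 in controls and 684, 696 and 373 in the knockout-labelled libraries. Knockout 3 was only just above control 1, and the rise was 1.04 ± 0.29 (adjusted p = 0.0262). Both calls were fragile. That of Pkp3 was lost without control 1, 2 or 3 (0.132, 0.119 and 0.0890), without knockout 2 or 3 (0.0774 and 0.0600), without the trend, with equal totals and with quantile normalization. With knockout 1 alone the difference of Pkp3 was 0.36. The call of Pkp4 was lost without control 2 or 3 (0.0776 and 0.0918), without knockout 1 or 2 (0.0754 and 0.0765), without the trend and with equal totals. The ratio of Pkp3 to Pkp1 was −3.21 ± 0.09 in controls and −2.73 ± 0.12 in the knockout-labelled group on the log2 scale (SD, n = 3 each; exact permutation p = 0.1, adjusted 0.117).

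Tight junction genes were split. Cldn12, a claudin without the usual scaffold-binding end, had 163.8, 135.5 and 170.0 normalized counts in controls and 726, 1023 and 460 in the knockout-labelled libraries. The groups were far apart and Cldn12 rose by 2.16 ± 0.29 (limma adjusted p = 0.00122). Cldn4, a sealing claudin of the granular layer, had 1093, 1668 and 2080 in controls and 2227, 7055 and 3450 in the knockout-labelled libraries. Knockout 1 was barely above control 3 and knockout 2 far above, and the rise was 1.28 ± 0.41 (adjusted p = 0.0417). That call was lost on leaving out any control or knockout 2 or 3 (adjusted p = 0.132, 0.0923 and 0.0555 without controls 1 to 3, 0.0860 without knockout 2, 0.0587 without knockout 3), and with knockout 1 alone the change was 0.51. The call was also lost with both other scalings and without the trend.

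Cldn1, whose loss in mice breaks the water barrier, had 4122, 5893 and 4571 normalized counts in controls and 4065, 9362 and 5683 in the knockout-labelled libraries, overlapping widely. Its difference of 0.32 had an interval of −0.37 to 1.01. Cldn23 had 624, 669 and 929 in controls against 435, 533 and 985, with an interval of −0.96 to 0.45. Per kilobase, Cldn1 took 45.4 to 58.0% of claudin transcripts in controls and 39.4 to 43.2% in the knockout-labelled libraries, and Cldn4 26.7 to 37.0% and 42.3 to 53.1%. The shares did not overlap for either gene, and Cldn4 led Cldn1 in knockout 2 and 3 but not in knockout 1.

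The scaffold gene Tjp3 (ZO-3) fell. It had 583, 669 and 971 normalized counts in controls and 149.5, 134.4 and 305 in the knockout-labelled libraries, with no overlap. The log2 change was −1.98 ± 0.33 (limma adjusted p = 0.00346). Occludin (Ocln), a membrane protein of the seal, had 462, 580 and 587 in controls and 204, 339 and 289 in the knockout-labelled libraries. All of the latter were lower and Ocln fell by 0.99 (SE 0.23, adjusted p = 0.0129), but missed the threshold without control 2 or 3 (0.0526 and 0.0513).

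Tjp1 (ZO-1), a scaffold of tight and forming adherens junctions, had 1734 to 2028 normalized counts in controls and 2205 to 3279 in the knockout-labelled libraries. The difference did not pass (0.39 ± 0.20, limma adjusted p = 0.168). As a share per kilobase of all zonula occludens transcripts, Tjp3 went from 30.5 to 38.8% to 3.95 to 14.3%.

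Of the 4 other cadherins, 1 rose and 1 fell (25% each, beside 17.7% and 15.9% of all genes tested). E-cadherin (Cdh1), present in all living layers, had 6816, 7666 and 6911 normalized counts in controls and 10339, 13647 and 10674 in the knockout-labelled libraries. The groups were clearly apart and the rise was 0.69 ± 0.18 (limma adjusted p = 0.0221). Its call was lost without control 1, 2 or 3 (0.0827, 0.0664 and 0.0856) and with equal totals (0.0600). The difference was 0.54 with knockout 1 alone and −0.02 with quantile normalization. P-cadherin (Cdh3), the neighbour of Cdh1 and typical of basal and follicle cells, had 806, 506 and 193.7 in controls and 1482, 791 and 418 in the knockout-labelled libraries. The groups overlapped, and the difference of 0.88 ± 0.57 did not pass (0.257), but did with the replicate block (0.00416). T-cadherin (Cdh13), which is held by a lipid anchor and lacks a cytoplasmic tail, had 182.7, 131.9 and 50.7 in controls and 23.4, 18.7 and 3.33 in the knockout-labelled libraries. It fell by 3.08 (SE 0.71, adjusted p = 0.0127), by 2.30 without knockout 3, and missed the threshold without control 1 (0.0525). With knockout 1 alone the difference was −2.15. Each gene in these data reached about 30 estimated reads in some library, and Cdh13 did so only in the controls. Its p-value is therefore no independent support for a fall, though Cdh13 still counts among the lower members. Cdh4 (R-cadherin) was low, at 14.7 to 27.9 and 5.54 to 16.8, and did not pass (0.254).

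Within the controls, several of these genes had the same order of libraries as the basal keratinocyte markers. All 6 basal markers were highest in control 1 and lowest in control 3, for example Krt5 at 20825, 13693 and 7878 normalized counts in the 3 controls and Col17a1 at 3922, 2894 and 1048. Cdh3, Dsg2, Dsg3, Cdh13 and Cdh4 were also highest in control 1 and lowest in control 3. So were Pkp4 (351, 266 and 219) and Ctnnb1 (3770, 3445 and 3134), which are not cadherins. These members were picked after their values were seen, and the share of all genes with this order was not computed. In the knockout-labelled libraries Krt5 was at 15413, 5982 and 6463, and Krt5, Itga6, Itgb4, Col17a1, Cdh3, Dsg2, Cdh4 and Cdh13 were highest in knockout 1. The order was not shared by all: Krt14 (59688, 115330 and 21768), Dsg3, Pkp4 and Ctnnb1 were highest in knockout 2, and Krt15 (50.5, 5.10 and 52.1) in knockout 3. The summed basal markers ranged from 14737 to 42310 in controls and from 30009 to 123489 in the knockout-labelled libraries, where Krt14 rose (3.21 ± 0.61, limma adjusted p = 0.00547) and Krt15 fell (−6.84 ± 0.76, adjusted p = 6.00e-04). The other 4 basal markers did not pass. The part of the basal layer in the changes of Dsg3 and Cdh13 was not tested.

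**Figure D5:**
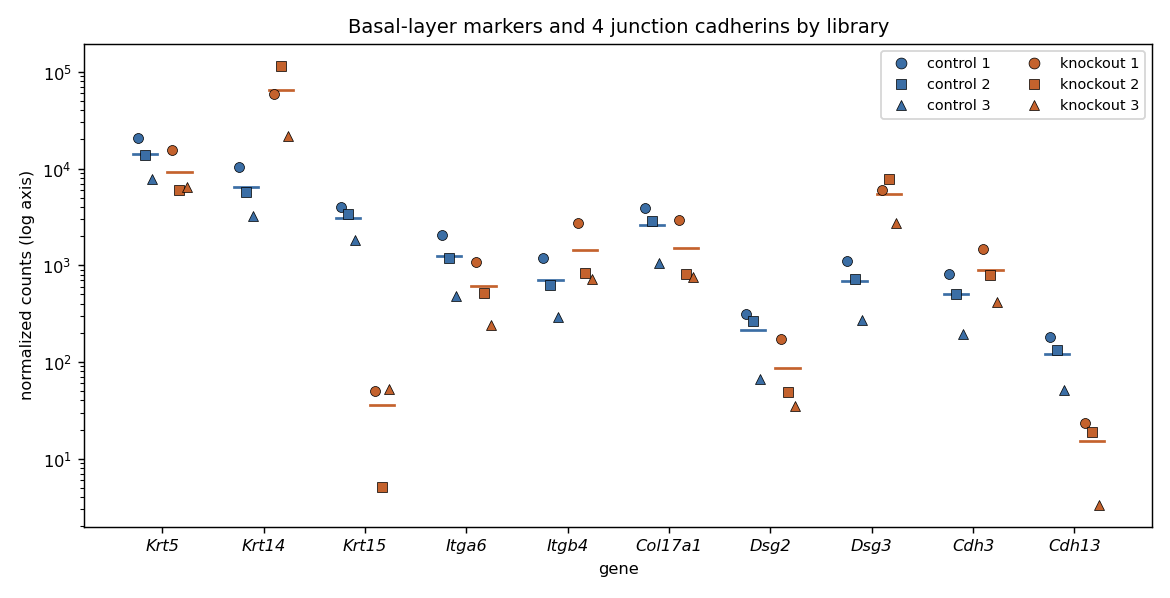
Normalized counts (log axis) of the 6 basal-layer markers and of Dsg2, Dsg3, Cdh3 and Cdh13 in each library; points are libraries and bars group means. Within controls all 10 genes are highest in control 1 and lowest in control 3, and Dsg3 rises between groups while Krt5 overlaps.

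Of the 6 catenin and nectin genes, 1 rose (16.7%) and none fell, beside 17.7% and 15.9% of all genes tested. Alpha-catenin (Ctnna1), which links cadherins to actin, had 1407, 1577 and 1367 normalized counts in controls and 2194, 3522 and 2169 in the knockout-labelled libraries. All of the latter were higher and Ctnna1 rose by 0.82 ± 0.22 (limma adjusted p = 0.0222), but missed the threshold without control 1, 2 or 3 (0.0718, 0.0551 and 0.0760). With knockout 1 alone its difference was 0.60. Beta-catenin (Ctnnb1) had 3770, 3445 and 3134 in controls and 4501, 5005 and 4381 in the knockout-labelled libraries, a difference of 0.43 ± 0.16 without overlap (adjusted p = 0.0744, and 0.0426 with the replicate block). The p120 catenin gene Ctnnd1 had 3679 to 4056 and 4066 to 4658, with an interval of −0.24 to 0.48. Ctnnd2, mainly a neural catenin, was near the floor at 6.81 to 41.1 in all libraries. Nectin1 had 5735, 8319 and 7897 in controls and 6666, 7030 and 8073 in the knockout-labelled libraries, with an interval of −0.46 to 0.46, and passed toward lower values with quantile normalization (adjusted p = 0.0315). Its relative Nectin4, whose loss causes an ectodermal dysplasia in people, had 2466 to 3847 and 4222 to 6040 (0.56 ± 0.23, adjusted p = 0.0931, and 0.0227 with the replicate block).

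Partner genes of the junctions were read from lists chosen by function. Of 17 measured partners of the desmosome and of its cornified form, 8 rose (47.1%) and none fell, where 17.7% of all genes tested rose and 15.9% fell. With library totals set equal 6 passed toward lower values beside the 8 higher ones (all genes 23.8% lower and 11.2% higher), with quantile normalization 5 beside 7 (17.3% and 17.1%), and with the replicate block 2 beside 8 (22% and 22.9%). Corneodesmosin (Cdsn), which joins Dsg1 and Dsc1 in the cornified desmosome, had 13256, 16109 and 16820 normalized counts in controls and 35702, 51149 and 27156 in the knockout-labelled libraries (1.26 ± 0.26, limma adjusted p = 0.00789), and 0.24 with quantile normalization (0.321). Of the proteases and inhibitors in the list, those with the smallest adjusted p were Klk6, which rose by 5.26 ± 0.55, cathepsin L (Ctsl) by 2.54 ± 0.27, the inhibitor Spink5 by 2.05 ± 0.24 and cathepsin D (Ctsd) by 1.19 ± 0.18; Klk7, Klk10 and St14 also rose. With quantile normalization the rises of Spink5 and Ctsd were 1.22 and 0.50. The rise of Klk6 was 4.57 without knockout 2 and 5.87 without knockout 3. The proteases Klk5, Klk8, Klk13, Prss8, Adam10 and Adam17 did not pass, with log2 differences between −0.42 and 0.42. Perp, a p53 target needed for desmosome assembly, and the cornified envelope proteins Evpl and Ppl, which bind desmosomes, did not pass, at 0.01, −0.26 and −0.42.

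Of 26 measured partners of tight junctions and cell polarity, 6 rose (23.1%) and 5 fell (19.2%), shares near those of all genes tested (17.7% and 15.9%). The counts were 4 and 7 with library totals set equal (all genes 11.2% higher and 23.8% lower). They were 9 and 8 with the replicate block (all genes 22.9% and 22%). Leaving out 1 library, 5 to 6 rose and 3 to 7 fell (all genes 11.8 to 17.9% and 8.61 to 16.9%). Arhgef2, a guanine nucleotide exchange factor held at tight junctions by cingulin, had 99.7, 124.0 and 69.5 normalized counts in controls and 1035, 1191 and 678 in the knockout-labelled libraries (3.29 ± 0.29, limma adjusted p = 1.96e-04). The scaffold Magi1 fell (−1.62 ± 0.19, adjusted p = 6.77e-04), while its paralog Magi2 was at 2.27 to 4.43 in controls and 42.1 to 100.4 in the knockout-labelled libraries (4.03 ± 0.52, adjusted p = 0.00103). The control level of Magi2 is a few reads, and its change was 3.10 with a pseudocount of 5 and 4.39 with 0.1. Each gene in these data reached about 30 estimated reads in some library, and Magi2 did so only in the knockout-labelled group. Its p-value is therefore no independent support for a rise. The polarity protein Crb3 rose by 2.08 ± 0.33 (adjusted p = 0.00261). Of 21 adherens junction partners, 3 rose (14.3%) and 6 fell (28.6%), beside the same 17.7% and 15.9% of all genes. With the replicate block 4 rose and 9 fell (all genes 22.9% and 22%). On leaving out 1 library 1 to 5 rose and 4 to 7 fell (all genes 11.8 to 17.9% and 8.61 to 16.9%). Ctnnbip1, an inhibitor of beta-catenin, had 1746, 1753 and 1877 in controls and 584, 624 and 777 in the knockout-labelled libraries (−1.45 ± 0.17, adjusted p = 7.37e-04), and Pvr, a nectin relative, rose by 2.49 ± 0.44 (adjusted p = 0.00408). The LIM protein Wtip changed by −1.60 ± 0.29 and the phosphatase Ptprf by −1.04 ± 0.21 (adjusted p = 0.00487 and 0.00730), and Ptprf by −1.65 with quantile normalization.

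Of the gap junction and pannexin list only Panx1 and Cnst were measured, and neither passed; with the replicate block Panx1 passed toward lower values (−0.80, limma adjusted p = 0.0353). Among 10 transcription factors known to act on epithelial junction genes, 1 rose (10%) and none fell, beside 17.7% and 15.9% of all genes tested. Zeb2, a repressor of E-cadherin that melanocytes also express, was the 1 that passed, with 101.9, 51.4 and 35.1 normalized counts in controls and 210.3, 326.6 and 90.9 in the knockout-labelled libraries (1.68 ± 0.52, limma adjusted p = 0.0368). Knockout 3 lay below control 1. The call was lost without control 2 or 3 or knockout 1 or 2 (adjusted p between 0.0918 and 0.116), without the trend (0.0648) and with equal totals (0.0706). With quantile normalization 3 of the 10 passed toward lower values (all genes 17.3%), and with the block 2 (all genes 22%). Of the rest, Grhl1, Grhl2, Grhl3, Trp63 and Klf4 had log2 differences between −0.69 and 0.10 and did not pass on the deposited scale. Neither did Ovol1 (0.34), Snai2 (0.29), Klf5 (−0.16) or Ovol2, which was near the floor (−1.37 ± 1.12).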

How the data were processed

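Epidermal RNA from 6 mice was sequenced after TruSeq library preparation, per the labels' protocols. The authors deposited normalized counts per gene, here treated as a signal. The tools TopHat2 2.1.0 and Partek 9.0.20.0202 and the build mm39 are named, with no role, per the submitters' processing notes. Normalization, counting and strand settings are not stated there. Of the low values (20 reads or fewer), 81.9 to 84.0% came out whole in units of a library's step, within 0.02 of it, so no whole reads were recovered and no count model was used. Depth was estimated as the library sum divided by the step.

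IDs were matched to symbols for 12771 of 12894 genes. Each of the 12894 reached about 30 estimated reads or more in some library, so genes low in every library are absent. Genes above 1 in at least 3 of 6 libraries (12872) were tested as log2(value + 1) with limma 3.58.1 in R 4.3.3 (lmFit, eBayes with trend), so fold changes understate those of low genes. The threshold was a Benjamini-Hochberg adjusted p of 0.05 over the genes tested. Errors are moderated SE and intervals are at 95%. Where nothing says that libraries are separate litters, p-values measure the spread between these samples. Exon lengths and transcript windows came from GENCODE M21, which describes another build than mm39. The fit was tested on simulated data.

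Animal numbers are adjacent across groups, and the log2 deviations of paired libraries from their group mean had correlations of 0.367, 0.228 and 0.362, so a fit with the pair as a block was run. The pairing comes from the data, not from a stated litter. The members, lists, motifs and named genes were chosen with earlier results of these data known. Counts cover all 37 members, of which 3 are not reported here singly. Per list, up to 4 partner genes with the smallest adjusted p were named, and the others named (Cdsn, Perp, Evpl, Ppl, the other proteases and the transcription factors that did not pass) were chosen after their values were seen. Alternatives covered pseudocount, filter, scaling, block, trend, robust fit, each library left out and knockout 1 alone. Running them on the partner lists, and summing Dsg1a and Dsg1b, were added after seeing the data.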

Additional observations from a re-analysis of the deposited data

How the results depend on the processing

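Over 16 alternatives, 8 of the 17 called members passed in each and 9 missed the threshold in at least 1. The pseudocounts and filters changed no member's call. Equal library totals gave 9 lower members and a member median of 0.0837, beside −0.36 for all genes. Quantile normalization gave 7 higher, 10 lower and a median of −0.0679, beside −0.0649 for all genes. Leaving out 1 library, higher members numbered 7 to 13 and lower members 4 to 6, and 2631 to 4464 of all genes passed, and knockout 1 alone gave 2711. The replicate block gave 5781 genes (22.9% of all genes higher and 22% lower), with 17 higher and 7 lower members. The added members described above are given with their values, and the block ended no member's call.

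Signs turned for 10 members. With equal totals the differences were −0.15 for Dsc3, −0.23 for Pkp1, −0.0215 for Cldn1, −0.22 for Ctnnd1 and −0.34 for Nectin1. With quantile normalization they were −0.67 for Dsc3, −0.0724 for Jup, −0.71 for Pkp1, −0.25 for Cldn1, −0.0180 for Tjp1, −0.0243 for Cdh1, −0.0679 for Ctnnb1, −0.37 for Ctnnd1 and −0.65 for Nectin1. With knockout 1 alone they were −0.11 for Pkp1, −0.24 for Cldn1 and −0.12 for Nectin1. Leaving out 1 library, Nectin1 ranged from −0.16 (control 1) to 0.10 (control 2), being −0.08 without knockout 3, and Ctnnd2 from −0.11 (knockout 1) to 1.11 (knockout 2). The log2 ratio of Cdh3 to Cdh1 differed by 0.19 (exact permutation p = 0.8), and by −0.36 to 0.68 on leaving out 1 library. The causes were not tested. Values of Gjb1, Ctnnd2 and Cdh4, the control values of Magi2 and the knockout-labelled values of Cdh13 rest on few reads.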
